A study of Rattus norvegicus with 24 samples.

Results

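Messenger RNA of whole liver was compared between 3 SAM-exposed and 3 sham-exposed rats, which make up 6 of the 24 libraries of a study that also sampled brain, thymus and spleen. All animals were Sprague-Dawley rats aged 7 months. The exposed animals carry the numbers 1, 2 and 3 and the sham animals 13, 14 and 15. Their label reads SAM-exposed, a term kept below, while the series title names PCBs (polychlorinated biphenyls, a family of long-lived chlorinated pollutants). The labels give no dose, duration, sex or batch for any of them. The 6 libraries were chosen by their tissue label, with no use of measured values. Of 32883 genes in the table, 12130 had enough counts in liver to be tested.

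The liver is the main site at which foreign compounds are oxidised, conjugated and exported. Dioxin-like PCBs are known to bind the aryl hydrocarbon receptor (AhR), which turns on Cyp1a1 and its relatives, and other PCBs act through the constitutive androstane receptor (CAR) and the pregnane X receptor (PXR), which turn on Cyp2b and Cyp3a genes. Hepatocytes also make bile acids, cholesterol, plasma proteins, glucose and urea, and many of these programs follow feeding, hormones and the daily clock.

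The 6 libraries held 13.9 to 18.4 M (mega) counts, and CPM below means counts-per-million after TMM scaling, which corrects for differences in composition between libraries. All 12 hepatocyte markers examined, Alb, Tf and Hnf4a among them, were higher in every liver library than in any library of the other tissues. The library SAM 1 stood apart: mitochondrially encoded genes took 17.8% of its counts, where the other 5 libraries had 5.71 to 8.07%, and it lay at 77.9 on the first principal component (64.5% of the variance) against -28.4 to -1.41. Values without SAM 1 are therefore given beside the printed liver fold changes and list medians that it moved by over 1.5 times or turned. The p-values measure the spread between these numbered animals' libraries, and in bulk tissue fewer cells of a type and less RNA per cell cannot be told apart.

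1 gene rose in SAM liver. Aldh1a7 (ENSRNOG00000017878), a cytosolic aldehyde dehydrogenase of the retinaldehyde-oxidising family, stood at 73.0, 118 and 115 CPM in SAM 1, 2 and 3 and at 3.86, 1.04 and 1.93 CPM in Sham 13, 14 and 15. These values rest on 799, 2332 and 1726 counts against 61, 20 and 32. The groups lay far apart, with the lowest SAM library many times above the highest Sham library. The log2 fold change was 5.50 ± 0.46 (SE, n = 3 and 3) with an edgeR adjusted p of 0.0376, and it was the only call among the 12130 genes, which makes the called share 0.00824%.

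The size of the Aldh1a7 difference was stable and its edgeR call was not. The log2 fold change lay between 5.14 and 6.11 with each library left out in turn. Its adjusted p was 0.0518 in the legacy form of the same edgeR test, which is the package default and called 0 genes (327 at an unadjusted p under 0.05), and it passed in DESeq2 at 3.51e-32. Without SAM 1 it was 0.000506, while the call was lost without SAM 2 (0.0922), SAM 3 (0.264), Sham 13 (0.0521), Sham 14 (0.110) or Sham 15 (0.726).

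Every other gene had an edgeR adjusted p of 0.803 or more, so none of those described from here on passed the test. At an unadjusted p under 0.05 there were 331 genes (2.73%), 216 of them higher (1.78%) and 115 lower (0.948%) in SAM. For 1313 genes (10.8%) the groups did not overlap: 630 lay above every Sham library (5.19%) and 683 below (5.63%). The median log2 fold change of all genes was 0.02, with 52.4% of genes above 0 and 47.6% below. DESeq2 called 2 genes (0.0165%), Aldh1a7 and Cyp1a1. Without SAM 1, 1 of 12398 genes was called (0.00807%), 284 were higher (2.29%) and 170 lower (1.37%) at an unadjusted p under 0.05, and 50.9% were above 0 and 49.1% below. The number at an unadjusted p under 0.05 moved with single libraries: it was 1892 without SAM 2, and 177, 141 and 168 without Sham 13, 14 and 15. The shares over all genes are the background for the counts of each gene group. The groups were chosen with earlier results of these data known, so their counts beside these shares are descriptions and not tests.

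**Figure D1:**
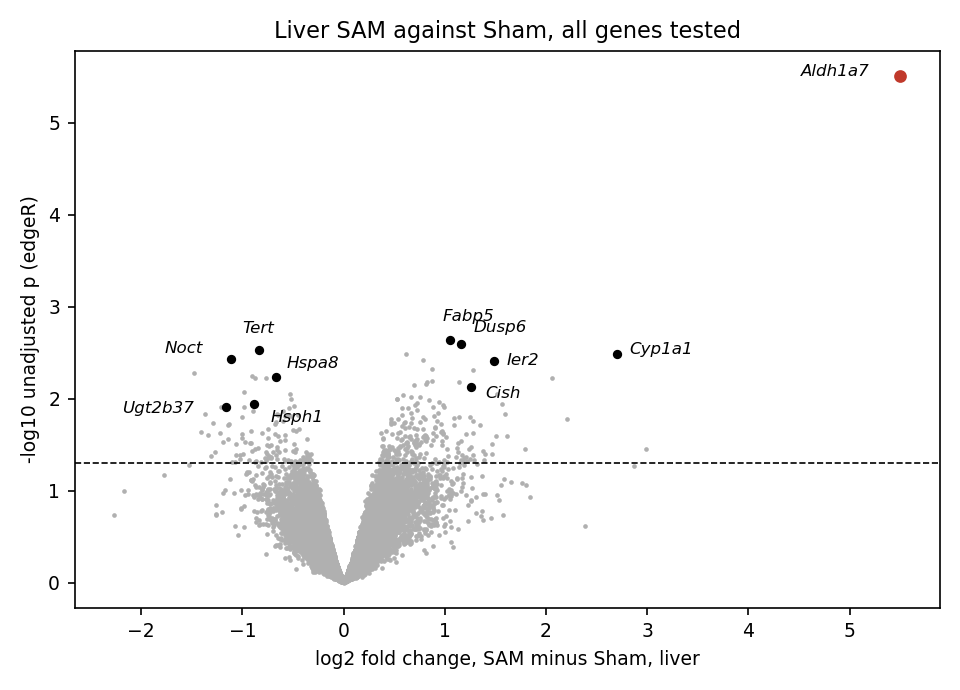
Each point is 1 of 12130 liver genes, with the log2 fold change (SAM minus Sham) on the x axis and -log10 of the unadjusted edgeR p on the y axis; the dashed line marks the unadjusted threshold of 0.05, the red point is the gene called, and black points are named genes. Aldh1a7 lies alone at a log2 fold change of 5.50, and Cyp1a1 at 2.70 is the named gene with the next largest difference.

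The other aldehyde dehydrogenases did not follow Aldh1a7. Of 14 tested, 7 were higher and 7 lower in SAM, and the median was 0.06, or 0.12 without SAM 1. Aldh1a1, its closest relative, which may share reads with it, was at 176, 218 and 157 CPM in SAM and 202, 128 and 157 CPM in Sham, and the groups overlapped (log2 fold change 0.18 ± 0.21). Aldh7a1, an enzyme of lysine breakdown, was at 593, 615 and 719 CPM against 500, 585 and 558, so every SAM library lay above every Sham library by a narrow margin (0.23 ± 0.15). Aldh6a1, which acts in valine breakdown, lay below in every SAM library, at 482, 874 and 842 against 923, 887 and 928 CPM (-0.32 ± 0.24, and -0.09 without SAM 1).

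Among the targets of AhR, Cyp1a1 (ENSRNOG00000019500), which oxidises planar aromatic compounds, was at 30.3, 5.65 and 11.4 CPM in SAM and 1.77, 1.72 and 3.69 CPM in Sham. The groups did not overlap, but the SAM values spanned a wider range than the difference between SAM 2 and the highest Sham library. The log2 fold change was 2.70 ± 0.64 with an edgeR adjusted p of 0.803, against 0.0410 in DESeq2 and 0.0160 in a fit over all 24 libraries. Without SAM 1 it was 1.82 ± 0.39.

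All 4 AhR targets tested were higher in SAM, with a median of 0.45 (0.48 without SAM 1). At an unadjusted p under 0.05 there was 1 of them, and 2 without SAM 1 (1.78% and 2.29% of all genes). The 3 other than Cyp1a1 overlapped between the groups. Cyp1a2, the constitutive hepatic member of the family, was at 3404, 1576 and 2100 CPM in SAM and 1211, 1715 and 1947 CPM in Sham, highest in SAM 1 and, in SAM 2, inside the Sham range. Nqo1, a quinone reductase, was at 47.8, 52.9 and 65.6 against 59.9, 32.0 and 38.3 CPM. Tiparp, a feedback repressor of AhR, was at 2.83, 7.76 and 9.78 against 6.70, 5.51 and 6.41 CPM, with its lowest value in SAM 1 (0.16 ± 0.39, and 0.50 without SAM 1). Cyp1b1, Ahrr and Aldh3a1 had too few counts to be tested: Cyp1b1 had 0 counts in each SAM library and 4, 1 and 0 in Sham, Ahrr had 1 count in SAM 3 and 0 in the other 5, and Aldh3a1 had 0 to 2. Ahr itself was at 40.5, 62.6 and 62.0 against 62.3, 74.7 and 70.2 CPM, with only the lowest Sham library inside the SAM range.

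The list of CAR and PXR targets holds Aldh1a7, the only gene called (0.00824% of all genes), and was otherwise balanced in direction. Of 24 tested, 12 were higher and 12 lower, with a median of 0.01 (-0.03 without SAM 1) beside 0.02 for all genes. Aldh1a7 and Gadd45b were the members whose groups did not overlap, 1 above every Sham library and 1 below (5.19% and 5.63% of all genes). Cyp2b2, a classic CAR target, was at 54.1, 22.3 and 12.6 CPM in SAM and 1.14, 28.0 and 2.78 CPM in Sham, so Sham 14 lay inside the SAM range. The hepatic Cyp3a23/3a1, a PXR target, was at 575, 511 and 445 against 439, 814 and 877 CPM (-0.47 ± 0.27), also with overlap. Gadd45b, a stress sensor and CAR partner, lay below in every SAM library, at 1.65, 2.17 and 1.6 against 2.97, 4.05 and 2.24 CPM (-0.76 ± 0.31).

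Of 31 other P450 genes tested, 18 were higher with all libraries and 9 without SAM 1. Above every Sham library lay 2, and below every Sham library 2 (5.19% and 5.63% of all genes). Cyp4f39, a fatty acid hydroxylase, was at 28.9, 16.9 and 19.8 CPM against 12.5, 12.1 and 12.3, a log2 fold change of 0.82 ± 0.22 that was 0.58 without SAM 1. Cyp2s1 was at 0.914, 0.907 and 1.06 against 0.443, 0.468 and 0.544 CPM (0.98 ± 0.35), low in all 6 libraries and tight within each group. The steroid hydroxylase Cyp2c12, known from female rat liver, was abundant in each library (4182, 5547 and 4886 against 5699, 6035 and 5722 CPM), whereas Cyp2c11, known from male liver, had 4, 2 and 0 counts in SAM and 0 in each Sham library. All 6 libraries shared this pattern of the pair, and the labels do not state the sex of the animals.

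Conjugating enzymes lay on both sides. Of 37 phase II genes tested, 24 were higher and 13 lower, 3 and 2 of them at an unadjusted p under 0.05 (1.78% and 0.948% of all genes). The largest lower value was that of Ugt2b37, a glucuronosyltransferase of a family with close copies, at 1265, 1987 and 777 CPM in SAM and 2183, 3515 and 3301 CPM in Sham. Its groups did not overlap (-1.16 ± 0.36, and -1.12 without SAM 1), and its relative Ugt2b10 was at 277, 461 and 262 against 364, 678 and 629 CPM, with Sham 13 inside the SAM range. Of the 15 glutathione transferases in the list, 12 were higher and 3 lower, Gstp1 among the lower, and their median of 0.33 was 0.07 without SAM 1. Gstt1 was at 83.4, 55.1 and 60.3 against 46.3, 43.9 and 42.7 CPM (0.58 ± 0.19, and 0.38 without SAM 1), and Gstm1 at 1374, 974 and 837 against 769, 785 and 433 CPM (0.68 ± 0.28, and 0.45 without SAM 1). Sult2b1, a cholesterol sulphotransferase, was at 4.39, 1.81 and 2.0 against 1.58, 0.988 and 0.967 CPM (1.16 ± 0.43, and 0.70 without SAM 1).

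**Figure D2:**
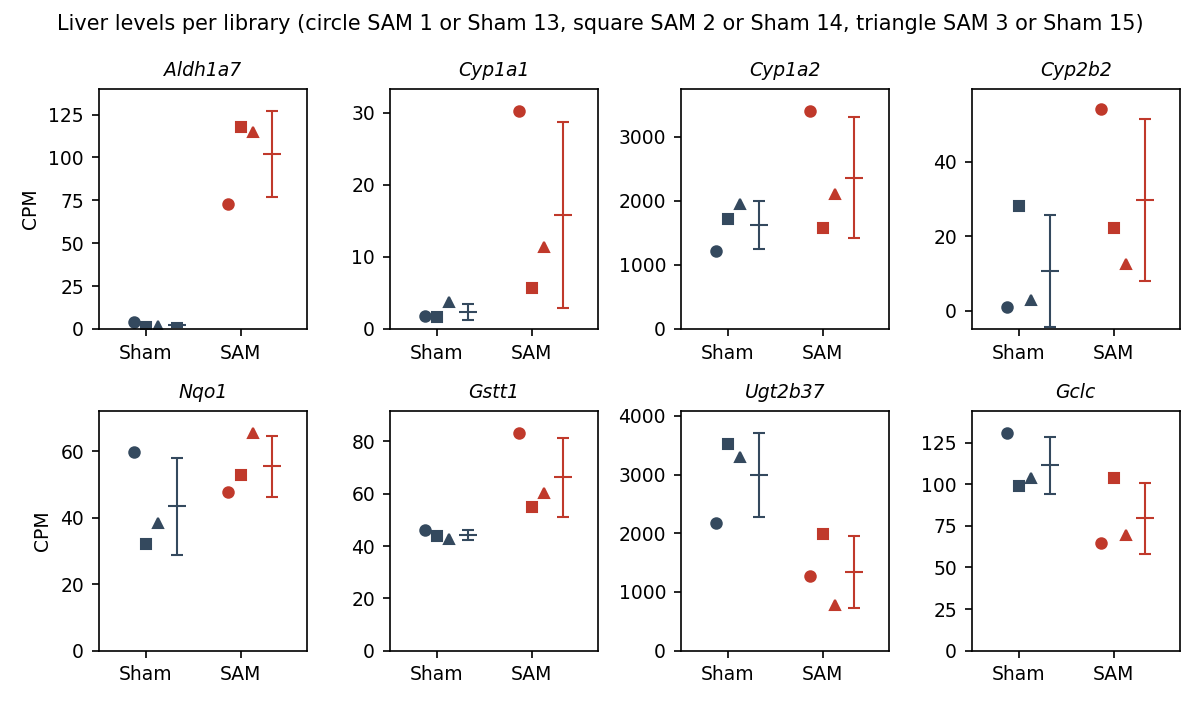
CPM in each liver library for 8 genes of foreign compound and redox metabolism, with Sham in blue-grey, SAM in red, and mean ± SD of 3 libraries beside the points. Aldh1a7, Cyp1a1, Gstt1 and Ugt2b37 separate the groups, Cyp1a2, Cyp2b2, Nqo1 and Gclc do not, and SAM 1 is the highest library for Cyp1a1, Cyp1a2, Cyp2b2 and Gstt1.

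Targets of NRF2, the oxidative stress regulator, had 13 of 22 members higher and a median of 0.11, or 0.02 without SAM 1. Gclc, the catalytic subunit for glutathione synthesis, was at 64.6, 104 and 69.7 CPM in SAM and 131, 98.7 and 104 CPM in Sham (-0.48 ± 0.22). SAM 2 lay among the Sham libraries, and SAM 1 and SAM 3 below all of them.

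Chaperones of the heat shock response lay mostly lower in SAM liver. These proteins fold or refold other proteins, and HSF1 drives their genes by binding alternating GAA and TTC units upstream of the start site. Of 14 tested, 11 were lower, 5 at an unadjusted p under 0.05 and 6 below every Sham library (0.948% and 5.63% of all genes). The median was -0.32 beside 0.02 for all genes. The 14 genes stand for 13 symbols, because a second, barely expressed gene named Hspa8 is counted apart and is among the 6. Without SAM 1 the median was -0.38, with 12 of 14 lower.

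The upstream sequences of 4 of the lower chaperone genes are shown because they carry such units. They are the 250 bases before the annotated start, from RefSeq on build GRCr8, read 5′ to 3′ on the gene's strand, with capitals where a script found GAANNTTC or TTCNNGAA (each reads the same on both strands, and neighbouring matches can overlap).
Hspa8: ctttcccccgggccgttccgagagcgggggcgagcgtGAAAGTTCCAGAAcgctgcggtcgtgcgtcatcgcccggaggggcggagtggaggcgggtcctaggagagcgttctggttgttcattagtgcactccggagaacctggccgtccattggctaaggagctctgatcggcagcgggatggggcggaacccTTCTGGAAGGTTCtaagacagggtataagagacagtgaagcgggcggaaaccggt
Hsph1: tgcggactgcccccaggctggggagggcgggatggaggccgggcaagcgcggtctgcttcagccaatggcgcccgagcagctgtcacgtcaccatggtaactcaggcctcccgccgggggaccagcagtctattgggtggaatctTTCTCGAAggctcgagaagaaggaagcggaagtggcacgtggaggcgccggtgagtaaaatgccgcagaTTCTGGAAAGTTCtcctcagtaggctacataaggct
Hspd1: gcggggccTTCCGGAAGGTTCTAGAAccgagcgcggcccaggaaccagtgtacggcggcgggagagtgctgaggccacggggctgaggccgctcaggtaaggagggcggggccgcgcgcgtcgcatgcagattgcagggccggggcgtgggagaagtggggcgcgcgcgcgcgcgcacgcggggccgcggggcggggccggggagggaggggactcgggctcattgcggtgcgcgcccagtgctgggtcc
Dnaja1: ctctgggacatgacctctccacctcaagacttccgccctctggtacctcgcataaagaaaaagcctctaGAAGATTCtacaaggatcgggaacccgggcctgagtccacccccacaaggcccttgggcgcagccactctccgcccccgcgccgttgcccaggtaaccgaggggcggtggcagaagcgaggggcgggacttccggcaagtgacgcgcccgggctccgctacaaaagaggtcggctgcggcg
The windows lie at chr8:50080264-50080513 (plus strand) for Hspa8, chr12:10427118-10427367 (plus) for Hsph1, chr9:64084038-64084287 (minus) for Hspd1 and chr5:60638154-60638403 (plus) for Dnaja1.

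Hspa8 held 4 matches, Hsph1 and Hspd1 3 each, and Dnaja1 1. RefSeq promoters were found for 11 of the 13 chaperone symbols tested, and 8 of the 11 held at least 1 match and 5 at least 2. Among all 33469 promoter windows of that length, 13.5% held a match and 1.75% at least 2. A match describes the letters only. Hsp90ab1, Hspa4 and Hspa4l, also lower in SAM, held none in this window. Hspe1 and Hspb1, which lay higher in SAM with all libraries, held 3 and 2 matches. The windows of Hspd1 and Hspe1 overlap on opposite strands, so their 3 matches are the same bases, counted for both genes. Whether matches go with the direction of the fold change was not tested.

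Hspa8, the constitutive HSC70 chaperone, was at 431, 422 and 453 CPM in SAM and 658, 837 and 579 CPM in Sham. The 3 SAM libraries lay close together and below each Sham library, with a log2 fold change of -0.67 ± 0.18 (-0.66 without SAM 1). A second, barely expressed gene of the same name, which may share reads with it, was at 0.366, 1.36 and 1.53 against 1.90, 2.96 and 2.12 CPM. Hsph1, a nucleotide exchange factor of HSC70, was at 35.8, 60.1 and 50.6 against 88.2, 118 and 65.4 CPM (-0.89 ± 0.27), and the gap between SAM 2 and Sham 15 was small.

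The co-chaperones and other families lay on the same side. Dnaja1, an HSP40 partner of HSC70, was at 181, 191 and 215 CPM in SAM and 267, 308 and 250 CPM in Sham (-0.49 ± 0.15), with no overlap. Hspd1, the mitochondrial chaperonin HSP60, was at 274, 326 and 321 against 403, 396 and 367 CPM (-0.34 ± 0.14). Hsp90ab1, the constitutive HSP90, was at 767, 715 and 638 against 788, 1049 and 831 CPM (-0.33 ± 0.17), with SAM 1 just under Sham 13. Cacybp, an HSP90-associated factor outside the list, was at 31.4, 39.0 and 39.2 against 52.9, 55.6 and 49.8 CPM (-0.53 ± 0.15). The members on the other side were Hspe1 (0.30, and -0.29 without SAM 1), Hspb1 (0.28, and -0.59) and Hsf1 (0.24, and 0.02), none at an unadjusted p under 0.05 with all libraries.

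Immediate early genes, which signalling turns on within minutes, lay mostly higher in SAM liver. Of 17 tested, 14 were higher and 3 lower, 6 and 1 of them at an unadjusted edgeR p under 0.05 (1.78% and 0.948% of all genes). Without SAM 1, 4 were higher and 0 lower at that p (2.29% and 1.37% of all genes). The median was 0.51, or 0.29 without SAM 1. Ier2 was at 67.4, 23.7 and 33.2 CPM in SAM and 16.1, 13.7 and 14.3 CPM in Sham. The Sham libraries were tight and all SAM libraries lay above them, with a log2 fold change of 1.49 ± 0.36 that was 0.95 without SAM 1. The AP-1 subunit gene Junb was at 12.3, 10.6 and 11.2 against 6.26, 6.86 and 9.31 CPM (0.60 ± 0.21), and the zinc finger factor Egr1 at 5.21, 5.44 and 5.39 against 2.72, 3.48 and 4.29 CPM (0.61 ± 0.23). Jund was at 97.8, 25.4 and 28.8 against 20.1, 22.7 and 23.4 CPM, and its log2 fold change of 1.19 was 0.29 without SAM 1. Fos, Fosb and Egr2 had too few counts to be tested.

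Feedback inhibitors of the ERK kinase cascade were mixed, with 5 of 9 higher, or 6 without SAM 1. Dusp6, a phosphatase that inactivates ERK in the cytoplasm, was at 55.4, 35.0 and 34.6 CPM in SAM and 13.3, 21.0 and 21.3 CPM in Sham (1.16 ± 0.27, and 0.91 without SAM 1). Dusp5, its nuclear counterpart, was at 5.76, 5.44 and 6.12 against 2.47, 3.43 and 4.90 CPM (0.68 ± 0.28). Spry2, a Sprouty inhibitor of receptor signalling, was at 3.20, 3.53 and 3.33 against 2.91, 2.39 and 2.72 CPM (0.33 ± 0.22). All 3 separated the groups, and they were the only ones of the 9 to lie above every Sham library (5.19% of all genes). Spred1 overlapped, at 1.37, 5.29 and 3.33 against 4.55, 6.34 and 5.20 CPM. In the fit over all 24 libraries, edgeR called Dusp6 (adjusted p 0.0160) and Ier2 (0.0320) in liver beside Aldh1a7 and Cyp1a1, all higher.

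Growth hormone signalling through STAT5 is read by Cish and Socs2, both feedback inhibitors. Of 12 growth hormone axis genes tested, 8 were higher and 4 lower, with a median of 0.19 (0.095 without SAM 1). Cish was the only member of the 12 whose groups did not overlap, beside 10.8% of all genes. Cish was at 45.2, 22.1 and 29.3 CPM in SAM and 8.72, 12.6 and 18.9 CPM in Sham, with no overlap (1.26 ± 0.35, and 0.94 without SAM 1). Socs2 was at 52.1, 18.4 and 16.2 against 11.8, 14.6 and 17.3 CPM, far above the rest in SAM 1, with SAM 3 inside the Sham range.

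Of the 19 clock genes tested, 7 were higher and 12 lower, with a median of -0.08. Without SAM 1 they were even, 10 higher and 9 lower, with a median of 0.001. Noct, a rhythmic phosphatase acting on NADP cofactors, was at 1.74, 1.41 and 2.2 CPM in SAM and 3.67, 4.47 and 3.32 CPM in Sham (-1.11 ± 0.27, and also -1.11 without SAM 1). Per3, a member of the period family, was at 1.55, 4.34 and 7.52 against 7.84, 11.6 and 15.1 CPM (-1.34 ± 0.48), with its lowest value in SAM 1. Npas2, a partner of BMAL1, lay on the other side at 20.1, 18.6 and 15.9 against 14, 10.1 and 8.82 CPM (0.73 ± 0.22). The core repressors Per1, Per2 and Nr1d1 overlapped between the groups, at log2 fold changes of 0.02, -0.21 and -0.40, or 0.18, -0.64 and 0.12 without SAM 1. The labels give no hour of tissue collection, and its part in these values was not tested.

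**Figure D3:**
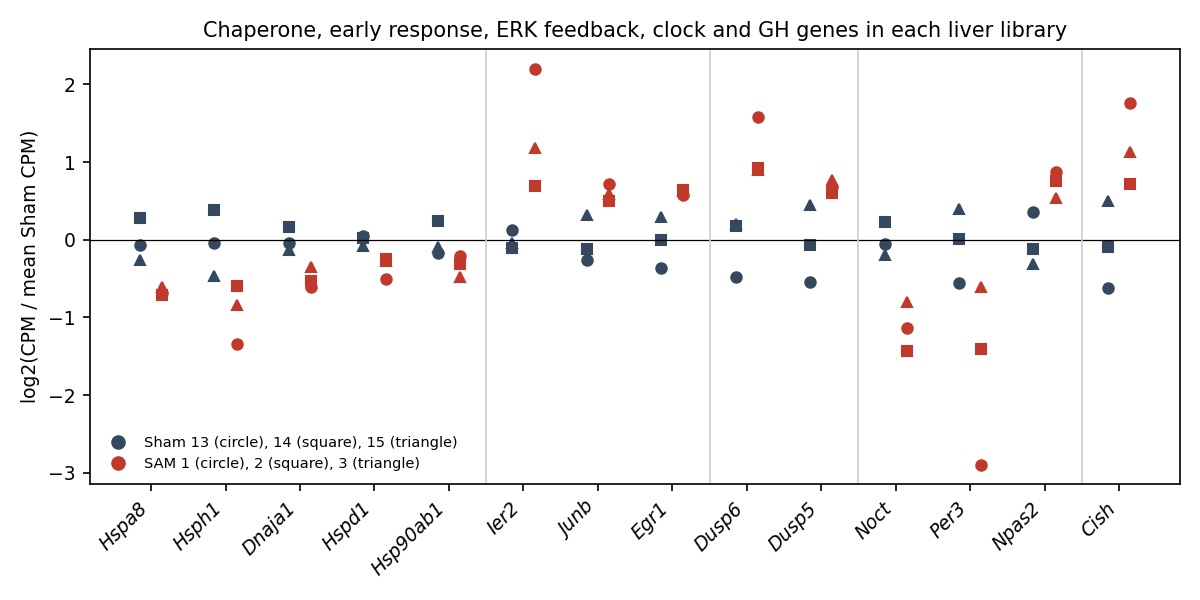
Log2 of CPM over the mean Sham CPM in each liver library, with Sham in blue-grey and SAM in red; the symbol shape marks the animal. The 5 chaperones at the left lie below every Sham library in all 3 SAM libraries, Ier2, Junb, Egr1, Dusp6, Dusp5, Npas2 and Cish lie above, and SAM 1 is the farthest library for Ier2, Dusp6, Per3 and Cish.

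Of 22 genes of glucose metabolism and the fasted state tested, 9 were higher and 13 lower in SAM. Gluconeogenesis makes glucose from lactate and amino acids, and G6pc performs its last step. G6pc was at 176, 167 and 237 CPM in SAM and 260, 334 and 284 CPM in Sham, below in every SAM library (-0.60 ± 0.19). Igfbp1, an insulin-repressed binding protein, was at 61.9, 59.8 and 33.6 against 62.4, 137 and 73.7 CPM (-0.81 ± 0.35), with SAM 1 and Sham 13 almost equal. Pck1, the entry enzyme of the pathway, overlapped at 595, 757 and 269 against 401, 1176 and 1140 CPM. Over the whole list, 0 were higher and 2 lower at an unadjusted edgeR p under 0.05 (1.78% and 0.948% of all genes). Above every Sham library lay 1, and below every Sham library 3 (5.19% and 5.63% of all genes). The median was -0.14, or -0.04 without SAM 1.

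Amino acid enzymes had 27 of 41 members higher. At an unadjusted p under 0.05, 4 were higher and 1 lower (1.78% and 0.948% of all genes). Tat, the glucocorticoid-induced tyrosine aminotransferase, was at 591, 512 and 519 CPM in SAM and 723, 1046 and 691 CPM in Sham (-0.60 ± 0.20). Ass1 of the urea cycle was at 2874, 2085 and 3440 against 1689, 1890 and 1922 CPM (0.61 ± 0.22), with no overlap. Asl, the next enzyme of the cycle, was at 614, 422 and 607 against 300, 445 and 401 CPM (0.52 ± 0.22), where Sham 14 lay above SAM 2. Gldc, which breaks down glycine, was at 63.8, 72.7 and 61.8 against 48.1, 49.3 and 54.3 CPM (0.39 ± 0.14).

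In cholesterol synthesis 17 of 25 genes were lower and 9 lay below every Sham library (5.63% of all genes). The median of -0.19 was the same to 2 decimals without SAM 1, when 24 of 25 were lower. Hmgcs1, an early enzyme of the pathway, was at 580, 565 and 558 CPM in SAM and 825, 681 and 684 CPM in Sham. Sqle, which commits squalene to sterols, was at 87.7, 81.0 and 77.5 against 114, 102 and 95.2 CPM. The SAM values of both genes lay under all Sham values, and those of Hmgcs1 within a narrow band.

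Fatty acid oxidation genes had 24 of 31 members lower and a median of -0.08, or -0.16 without SAM 1. Acadm, which oxidises medium-chain fatty acids, was at 470, 495 and 528 CPM in SAM and 545, 634 and 653 CPM in Sham (-0.29 ± 0.15). Vnn1, a PPARA-induced pantetheinase, was at 4.11, 10.1 and 4.46 against 11.3, 11.6 and 19.2 CPM (-1.14 ± 0.39). Fatty acid synthesis genes had 9 of 20 higher with all libraries and 16 of 20 without SAM 1, when the median moved from -0.01 to 0.17. Acacb, which makes malonyl-CoA at mitochondria, was at 107, 127 and 215 against 121, 112 and 82.0 CPM. Fabp5, a fatty acid carrier outside these lists, was at 47.0, 28.3 and 41.0 against 22.7, 17.1 and 16.1 CPM and separated the groups (1.06 ± 0.24).

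Bile acid genes had 6 of 17 members higher and 11 lower. Cyp7a1, the rate-limiting enzyme of bile acid synthesis, was at 29.7, 99.1 and 111 CPM in SAM and 167, 120 and 177 CPM in Sham (-0.95 ± 0.44, and -0.56 without SAM 1). Klb, the co-receptor through which gut FGF15 represses Cyp7a1, lay below as well, at 2.56, 9.73 and 8.12 against 10.4, 10.4 and 15.7 CPM, with the lowest value of both genes in SAM 1. Hsd3b7, a later enzyme of the same pathway, lay above, at 145, 138 and 130 against 100, 113 and 106 CPM (0.37 ± 0.13).

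Thyroid hormone handling, which PCBs are known to disturb, had 10 of 13 genes lower and a median of -0.25 (-0.08 without SAM 1). Dio1, the hepatic deiodinase, was at 109, 91.1 and 108 CPM in SAM and 139, 114 and 124 CPM in Sham (-0.29 ± 0.15), with a small gap between the groups. Retinoid genes were even, 8 higher and 9 lower. Rara, a retinoic acid receptor, was at 40.3, 22.8 and 20.8 against 15.9, 16.5 and 15.4 CPM (0.81 ± 0.26, and 0.45 without SAM 1).

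Transcription factors of hepatocyte identity appeared on both sides of the list of lowest p. Foxa2, a pioneer factor of liver genes, was at 61.5, 37.1 and 52.0 CPM in SAM and 24.3, 24.1 and 34.0 CPM in Sham (0.87 ± 0.23). Tbx3, a factor of hepatocytes around the central vein, was at 5.48, 9.93 and 12.4 against 17.1, 19.7 and 18.7 CPM (-0.99 ± 0.28). At the 2 ends of the lobule, 10 of 13 periportal genes and 6 of 14 pericentral genes were higher, with medians of 0.07 and -0.03. Without SAM 1 the counts were 9 and 5 and the medians 0.08 and -0.12, and the difference between the lists was not tested.

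The genes with the lowest p after Aldh1a7 also included several signalling and nuclear genes. Rgs3, a regulator of G protein signalling, was at 94.1, 61.0 and 67.0 CPM in SAM and 34.5, 37.3 and 49.5 CPM in Sham, and Dact1, a modulator of Wnt signalling, at 2.56, 0.958 and 2.80 against 0.569, 0.624 and 0.242 CPM (2.06 ± 0.55). On the lower side, Tert, the catalytic subunit of telomerase and a member of the fetal and preneoplastic list, was at 10.9, 15.3 and 12.2 against 19.4, 24.4 and 25.0 CPM (-0.84 ± 0.20). Limk2, a kinase of the actin regulator cofilin, was at 48.0, 53.6 and 59.9 against 75.0, 84.6 and 71.3 CPM (-0.52 ± 0.15), and Prdm6, a transcriptional repressor, at 4.20, 2.82 and 2.66 against 6.20, 5.87 and 5.86 CPM (-0.91 ± 0.24). None of these 5 genes overlapped between the groups.

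Gstp1, the placental-form glutathione transferase used as a marker of preneoplastic foci in rat liver, varied by animal rather than by group. It was at 29.1, 112 and 84.5 CPM in SAM and 340, 20.9 and 23.1 CPM in Sham, with the highest value in Sham 13. Its log2 fold change was -0.76 ± 1.05 (-0.38 without SAM 1) and turned to 1.78 without Sham 13.

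Plasma proteins of the acute phase had 17 of 21 members higher and 7 above every Sham library, beside 5.19% for all genes, with a median of 0.23 (0.13 without SAM 1). Saa4 was at 984, 708 and 811 CPM in SAM and 675, 568 and 604 CPM in Sham (0.44 ± 0.18). Hp, the haemoglobin scavenger haptoglobin, was at 9416, 5972 and 6547 against 5426, 5191 and 5321 CPM, and the complement component C3 at 11930, 9705 and 11195 against 8890, 9466 and 8569 CPM. These differences were small, and SAM 1 held the highest value of all 3. Complement and coagulation genes together were even, 17 higher and 18 lower, whereas without SAM 1, 24 were higher and 11 lower and the median moved from -0.002 to 0.05.

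Among interferon-stimulated genes, 20 of 32 were higher, 3 of them above every Sham library and at an unadjusted p under 0.05 (5.19% and 1.78% of all genes). Without SAM 1, 28 of 32 were higher and 5 lay at an unadjusted p under 0.05 (2.29% of all genes). The median was then 0.19, beside 0.15 with all libraries. Ifi47, an interferon-inducible GTPase, was at 190, 154 and 152 CPM in SAM and 103, 123 and 118 CPM in Sham (0.53 ± 0.16), and Irf1, the interferon regulatory factor, at 55.8, 36.0 and 32.3 against 21.1, 28.6 and 26.7 CPM (0.70 ± 0.24, and 0.43 without SAM 1). Oasl varied widely among the sham animals, at 8.41, 4.31 and 2.05 CPM against 10.4, 8.42 and 13.4 in SAM. Icam1, an adhesion molecule for leukocytes, was at 23.0, 22.8 and 19.3 against 18.8, 14.1 and 15.2 CPM (0.44 ± 0.18). The matrix proteoglycan Dcn was at 5.67, 6.0 and 6.92 against 4.05, 3.90 and 3.75 CPM (0.67 ± 0.20), tight within both groups. Of 9 stellate cell markers tested, Dcn among them, 4 were higher and 5 lower, with a median of -0.12. Of 16 fibrosis and matrix genes tested, 9 were higher and 7 lower.

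Markers of Kupffer cells and sinusoidal endothelium varied widely between libraries of the same group. Of 12 Kupffer cell markers, for the resident macrophages, the 11 tested summed to 199, 1206 and 479 unscaled CPM in SAM and 281, 690 and 745 in Sham, and Timd4, too low to be tested, was at 0.126 to 0.499. Within them Adgre1, the F4/80 antigen, was at 3.20, 136 and 15.8 CPM in SAM and 9.80, 17.5 and 25.4 CPM in Sham, so its log2 fold change of 1.57 ± 1.08 rested on SAM 2 and was -0.86 without it. Sinusoidal endothelial markers summed to 164, 523 and 302 against 276, 388 and 470 unscaled CPM, again highest in SAM 2 and lowest in SAM 1. Of the Kupffer cell markers 5 of 11 were higher in SAM (median -0.04), and 11 of 11 without SAM 1 (0.18). The endothelial list had 3 of 10 higher (median -0.04), and 8 of 10 without SAM 1 (0.17). Markers of T cells, B cells and neutrophils were low throughout, with sums of 1.01 to 49.1. The part of these shifts in the immune values above was not tested.

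Red cell transcripts were higher in SAM for 5 of 6 genes. These 5 lay above every Sham library and the other below (5.19% and 5.63% of all genes). All 6 had an unadjusted edgeR p under 0.05 (1.78% of all genes higher and 0.948% lower), also without SAM 1, and none was called. Hbb, beta-globin, was at 381, 169 and 264 CPM in SAM and 142, 157 and 126 CPM in Sham (0.94 ± 0.28, and 0.61 without SAM 1). Alas2, the erythroid haem synthesis enzyme, was at 8.68, 3.53 and 6.46 against 3.03, 3.28 and 2.30 CPM, and SAM 2 lay only just above the Sham libraries. Slc4a1, the anion exchanger, went the other way at 5.67, 7.26 and 4.19 against 9.10, 8.99 and 8.52 CPM (-0.63 ± 0.23). The alpha-globin genes are near-identical copies, so their split counts are uncertain.

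3 lists had large medians that rested on SAM 1. All 13 mitochondrially encoded genes were higher with a median of 0.85, as were 84 of 88 cytosolic ribosomal protein genes (0.41) and 71 of 76 nuclear respiratory chain genes (0.40). Without SAM 1 the medians were -0.08, -0.03 and -0.05. Mt-co2, a cytochrome oxidase subunit, was at 23300 CPM in SAM 1 and between 5001 and 6485 CPM in the other 5. Lipoprotein genes moved in the same way, from 0.39 to 0.05, whereas the heat shock and cholesterol medians did not.

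**Figure D4:**
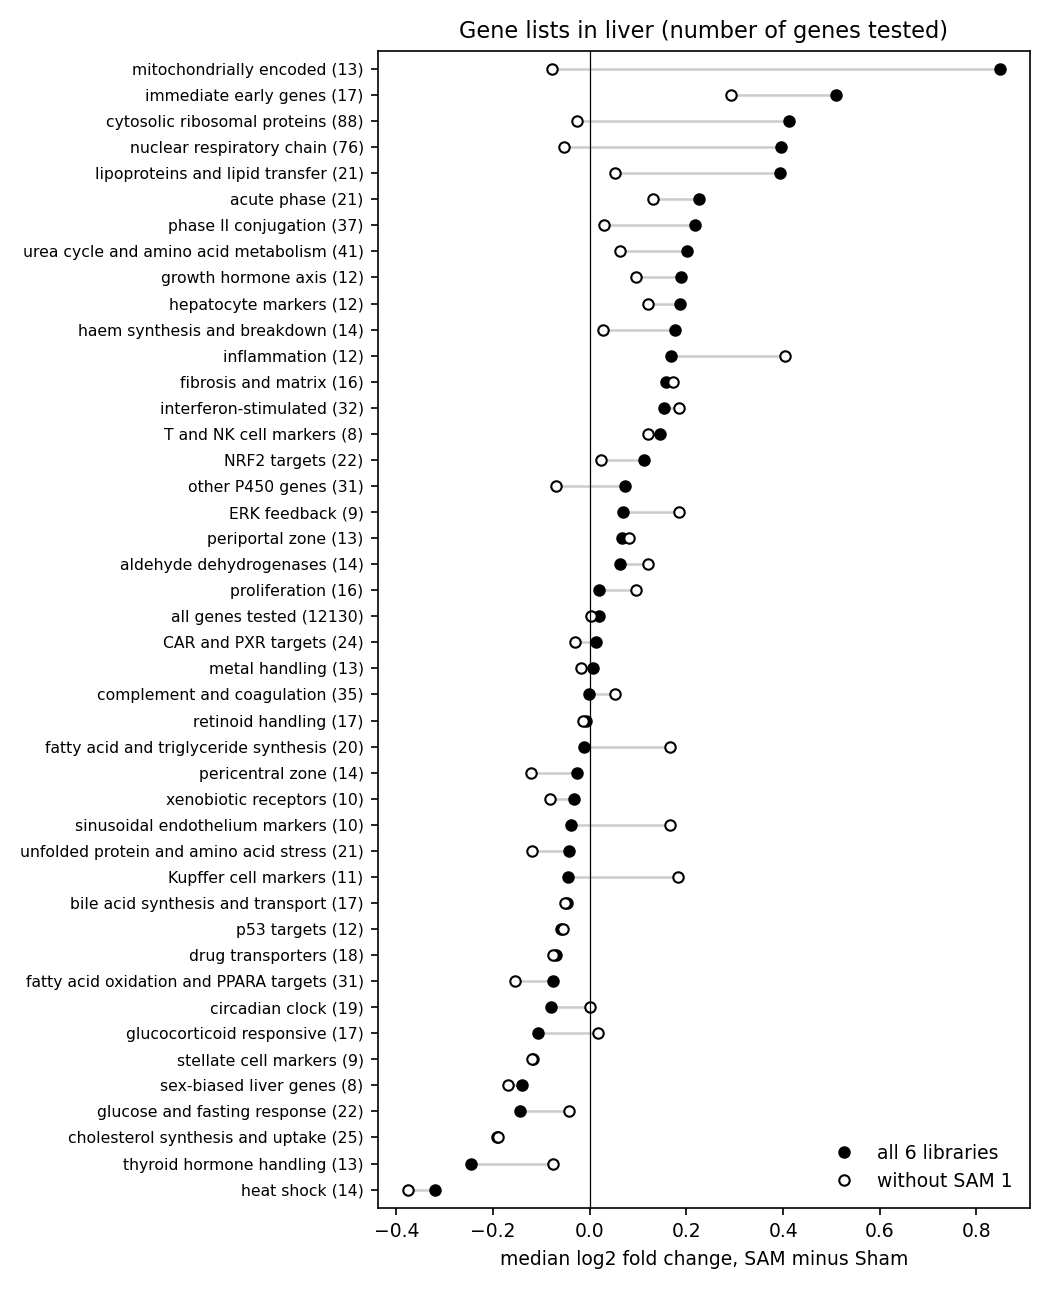
Median log2 fold change (SAM minus Sham, x axis) of each gene list with at least 8 genes tested in liver, with all 6 libraries (filled) and without SAM 1 (open); the number of genes tested is in parentheses. Heat shock genes are lowest at -0.32 and -0.38, and the mitochondrial, ribosomal and respiratory chain medians of 0.85, 0.41 and 0.40 pass to the other side of 0 without SAM 1.

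To ask where liver differed from the other organs, the liver difference was set against the mean difference in brain, thymus and spleen in 1 edgeR fit over 24 libraries and 17623 genes. Equal animal numbers in different tissues are not stated to be the same rat. 1 gene (0.00567%) was called: Dusp6, whose log2 fold change was 1.14 ± 0.18 in liver. In brain it was -0.26 ± 0.17, in thymus -0.26 ± 0.18 and in spleen -0.14 ± 0.17. The difference was 1.36 ± 0.20 with an edgeR adjusted p of 0.0268, and DESeq2 called 40 genes. The call was lost without the brain libraries (0.203), liver SAM 1 (0.0507), Sham 13 (0.106) or Sham 14 (0.0510), and without liver SAM 2 the number called was 1081.

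Aldh1a7 was not called in that contrast (5.89 ± 3.20, edgeR adjusted p 0.513), and its values outside liver were low. On the scale of the 24-library fit it averaged 241 ± 62.4 CPM in SAM liver and 5.38 ± 3.28 in Sham liver (SD, n = 3). In spleen it was at 0 in every SAM library and at most 0.0571 CPM in Sham. The thymus values ranged from 0.390 to 3.72 CPM in SAM and from 0.384 to 5.24 in Sham, with the groups overlapping. The brain values were 0.188 to 0.519 CPM in SAM and 0.0454 to 0.335 in Sham, also with overlap.

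Most genes of the heat shock list had fold changes below 0 in the other organs too: 10 of 14 in brain, 13 in thymus and 14 in spleen, beside 11 in liver in the same fit. The list medians were -0.22, -0.24 and -0.40 in brain, thymus and spleen and -0.34 in liver, and the median of all genes was 0 in each tissue. The log2 fold change of Hspa8 was -0.68 ± 0.27 in liver, and -0.24 ± 0.27, -0.59 ± 0.27 and -0.54 ± 0.27 in brain, thymus and spleen. That of Dnaja1 was -0.51 ± 0.30, then -0.37 ± 0.30, -0.55 ± 0.30 and -0.76 ± 0.30 in the same order. The liver values of Hspa8, Hsph1, Dnaja1 and Hspd1 did not differ from the other tissues at an adjusted p of 0.708 or above, which does not show that they are alike. Ier2 (1.47 in liver, 0.36, 0.10 and -0.14 elsewhere) and Cish (1.23 in liver, 0.19, -0.24 and -0.31 elsewhere) had larger values in liver, but their contrasts did not pass (adjusted p of 0.245 and 0.304).

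**Figure D5:**
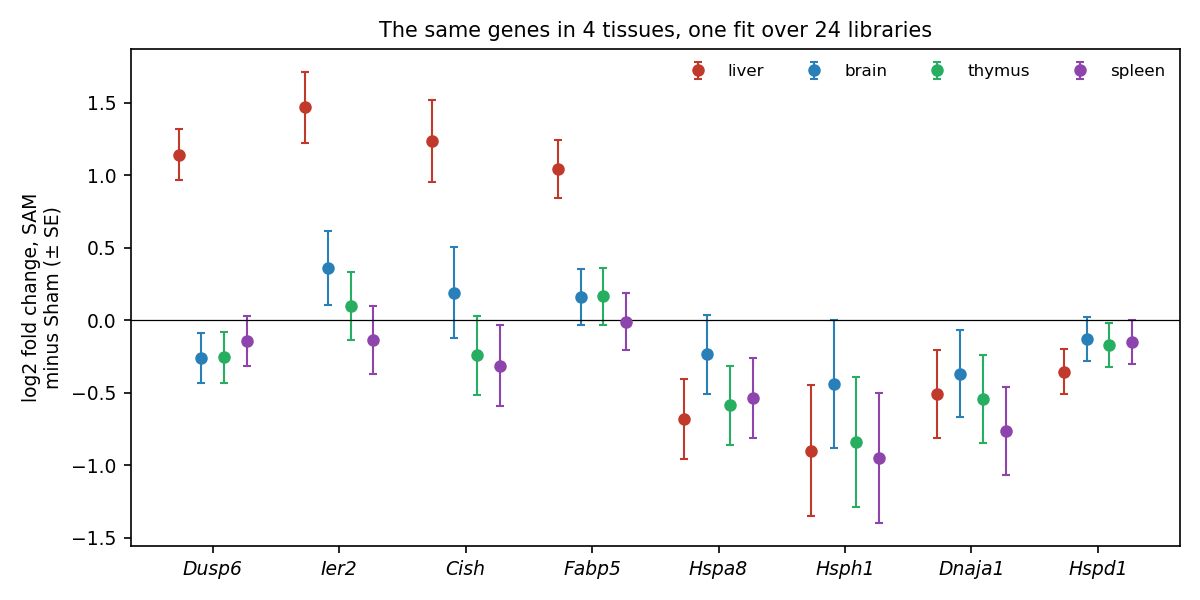
Log2 fold change (SAM minus Sham, y axis, ± SE) of 8 genes in liver, brain, thymus and spleen from 1 fit over 24 libraries. Dusp6 is at 1.14 in liver and below 0 in the other 3 tissues, while the 4 chaperones are below 0 in all 4 tissues.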

How the data were processed

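For each gene and library the authors deposited a raw whole-number count, in 1 table. Per the labels' protocols, RNeasy kits gave the RNA and TruSeq stranded mRNA kits the libraries. STAR 2.2.1 and the rat build rn6 are named in the submitters' processing notes without their roles. Which program counted, with which strand setting and annotation, is not given in the sources used here. Counts of overlapping genes and near-identical copies (Aldh1a7 and Aldh1a1, Cyp2b, Cyp3a, Ugt2b, globins, Hspa8) are uncertain.

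The 3 SAM and 3 Sham liver libraries were compared with edgeR 4.0.16 (R 4.3.3): filterByExpr with a minimum count of 10, TMM scaling, and the quasi-likelihood test in its updated form (the package default is the legacy form), adjusted by Benjamini-Hochberg at 0.05. Alternatives used DESeq2 1.42.0 and limma 3.58.1 (voom with quality weights). Each SE of an edgeR log2 fold change was back-calculated as its absolute value over the square root of the F statistic. List scores, principal components and correlations use log2 CPM with a prior count of 2. The fits were tested on simulated data.

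Members and the 52 gene lists were chosen with earlier results of these data known (788 of 840 symbols found). Named genes are the 12 with the lowest p in each direction (symbol held by 1 gene, mean of at least 1 CPM). To these were added the AhR, CAR and PXR sentinels, and in each list the 4 lowest p and those whose groups do not overlap. Hspe1, Hspb1, Hsf1, Hspa4, Hspa4l, Per1, Per2 and Nr1d1 are list members named outside this rule. They and the genes too low to be tested were chosen after their values were seen. No library was a copy of another: the chi-square between pairs of them, per degree of freedom, was 11.8 to 193. A few members of the gene lists are counted in them but not reported by name here.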

Additional observations from a re-analysis of the deposited data

Results flagged for a closer look

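The SAM minus Sham difference of Dusp6 differed between liver and the other tissues, which was tested as a contrast in 1 edgeR fit over 24 libraries. The log2 contrast was 1.36 with an adjusted p of 0.0268. In liver all 3 SAM libraries lay above all 3 Sham libraries, while the fold changes in brain, thymus and spleen were -0.26, -0.26 and -0.14. The contrast stayed between 1.12 and 1.48 in each alternative run, but the call did not hold in all of them. Its edgeR adjusted p was 0.203 without the brain libraries. Without liver SAM 1, Sham 13 or Sham 14 it was 0.0507, 0.106 and 0.051. Groups of 3 were too small for the check on single outlying libraries.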

How the results depend on the processing

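With each of 16 alternatives, 82 of the 91 liver fold changes of genes with values in the text kept their direction. Those that turned, with their range over the libraries left out, were Tiparp (-0.18 without SAM 3, to 0.50), Gstp1 (1.09 with limma quality weights; -1.27 to 1.78, the last without Sham 13), Adgre1 (-0.86 without SAM 2, to 2.12), Per1 (-0.35 without SAM 2, -0.10 without Sham 13 and -0.27 without Sham 15, to 0.54; limma -0.18), and 5 that turned without SAM 1: Cela1 (-0.46 to 0.88; limma -1.34), Hspb1 (-0.59 to 0.80; limma -0.94), Hspe1 (-0.29 to 0.56; limma -0.16), Mt-co2 (-0.077 to 1.35) and Nr1d1 (-1.31 to 0.12; limma 0.27). The legacy form without SAM 1, chosen after seeing the data, turned the same 5 (-0.49, -0.59, -0.29, -0.077 and 0.12). The number of liver genes called, 1 and higher, was 2 with DESeq2, 0 with the legacy form and 4 with the 24-library fit, all higher. With a library left out it was 0 to 1, lost without SAM 2, SAM 3, Sham 13, Sham 14 or Sham 15, where 1892, 334, 177, 141 and 168 genes had an unadjusted p under 0.05. It was 1 with RLE scaling, no filter, a stricter filter, robust shrinkage, limma and mitochondrially encoded genes removed. For the contrast with other tissues, 1 gene was called, higher in liver; DESeq2 called 40 (29 higher, 11 lower) and leaving out brain 0 (1369 at an unadjusted p under 0.05). Leaving out a liver library gave 0 to 1081 (0 to 598 higher and 0 to 483 lower), with 1081 without SAM 2 and 5 without SAM 3. The causes were not tested. 14 list medians changed sign without SAM 1, the mitochondrial, ribosomal and respiratory chain lists among them. In libraries of 13.9 to 18.4 M (mega) counts, values under 1 CPM rest on few counts. No paired analysis was possible because the SAM animals (1 to 3) and Sham animals (13 to 15) share no numbers.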

Other observations

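Genes of metal and haem handling, not described above, varied within groups. Mt1, a metallothionein that binds zinc and cadmium, was at 193, 60.2 and 176 CPM in SAM and 40.0, 76.5 and 113 CPM in Sham, with SAM 2 inside the Sham range (0.90 ± 0.49). Mt2A followed the same libraries, at 120, 30.4 and 121 against 28.3, 50.9 and 81.5 CPM. Of 14 genes of haem synthesis and breakdown, 12 were higher and none lay at an unadjusted p under 0.05, with a median of 0.18 (0.03 without SAM 1). The unfolded protein response list had 9 of 21 members higher (6 without SAM 1), also with none at that p, and its Dnajb9, a chaperone of the endoplasmic reticulum, was at 16.4, 36.8 and 34.1 against 44.8, 51.3 and 34.8 CPM.

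Cpa1, a pancreatic carboxypeptidase, was counted in every liver library, at 836, 354 and 396 CPM in SAM and 334, 352 and 284 CPM in Sham, while the acinar marker Cela1 was at 0.532 to 5.03 CPM. Cell cycle genes were even, 8 higher and 8 lower of 16 (11 and 5 without SAM 1), and p53 targets had 5 higher and 7 lower of 12, with no member of either list at an unadjusted p under 0.05.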
